A study of Homo sapiens with 14 samples.

Results

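BMI1 sites without RING1A or RING1B are the BMI1 peaks of control cells that overlap no control RING1A peak and no control RING1B peak. There were 7366 of them among 20775 control BMI1 peaks, 35.5% (Clopper-Pearson interval 34.8 to 36.1). They are called RING1-free sites here, which means only that no RING1A or RING1B peak was called under them. They were chosen by the called positions of the control BMI1, RING1A and RING1B peaks, so those positions are not a finding. The other 13409 BMI1 peaks, called RING1-bound, comprised 9291 with RING1A only, 915 with RING1B only and 3203 with both. The peak lists come from chromatin immunoprecipitation followed by sequencing (ChIP-seq) in the established prostate cancer line DU145 under puromycin selection. Cells with a stable EED knockdown, all carrying the construct labelled sh3, were set against control cells with a scramble construct. Each of 7 antibodies, to EED, uH2A (a rabbit and a mouse antibody), RING1A, RING1B, BMI1 and H3K27me3, was used in 1 library per cell line, so nothing below is checked by replication and an effect of this construct cannot be told apart from one of EED. Intervals are 95% intervals for counting error only, and peaks are not replicates.

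BMI1 is a PCGF-family subunit of Polycomb repressive complex PRC1. In canonical PRC1 it forms a heterodimer with RING1A or RING1B, the E3 ligases that place ubiquitin on histone H2A (uH2A), and it is the dimer that has the ligase activity. EED belongs to PRC2, the complex that places H3K27me3, and it binds that mark. In the textbook order, H3K27me3 recruits canonical PRC1 through its CBX subunits, while other PRC1 forms with different PCGF partners are recruited without it. BMI1 is known in prostate and other tissues for its role in stem cell self-renewal and for repression of the INK4A-ARF locus.

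The libraries fall into 2 sets by their culture descriptions. One set holds BMI1, RING1A, RING1B and H3K27me3, and the other holds EED and both uH2A antibodies. The control lists from which the sites were chosen differed in length, with 56011 RING1A, 5155 RING1B and 20775 BMI1 peaks. The depth of the libraries is unknown. In all 8 lists of the BMI1 set, every peak on chromosomes 22, X and Y carries a height of 0 and no other peak does. Heights are therefore described on the other chromosomes, and a height of 0 was not read as a weak peak there. Selections of the tallest or taller peaks of these lists still leave out peaks with a height of 0. Positions refer to hg19, and genes were not assigned to them.

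RING1-free sites were short and low among BMI1 peaks. Their median length was 100 bp (quartiles 75 and 125 bp), against 150 bp for RING1-bound peaks (quartiles 100 and 225 bp). The shortest length in the list, 75 bp, was that of 36.7% of RING1-free sites and 14.2% of RING1-bound peaks. Only 9 RING1-free sites were 500 bp or longer, against 748 RING1-bound peaks. The 7366 sites together covered 837 kb, and the 13409 RING1-bound peaks 2825 kb. Matched-length values are given below for the shares on the control EED, uH2A rabbit, uH2A mouse and H3K27me3 lists, on knockdown BMI1 and on knockdown RING1, each against all RING1-bound peaks. The other comparisons with RING1-bound peaks were not matched on length.

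The median listed height of RING1-free sites was 63.9 in the caller's units (quartiles 59 and 70.9, n = 6986), against 73 for RING1-bound peaks (quartiles 63.9 and 92.9, n = 12340). The order of the medians was 63.9 for no RING1, 68.8 for RING1A only, 83.4 for RING1B only and 114 for both. A height of 100 or more was listed for 2.22% of RING1-free sites and 20.5% of RING1-bound peaks. The distributions of RING1-free and RING1A-only peaks overlapped widely, and BMI1 peaks with both RING1 proteins stood above both. Height and length come from the list that chose the sites, so they are a description.

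**Figure D1:**
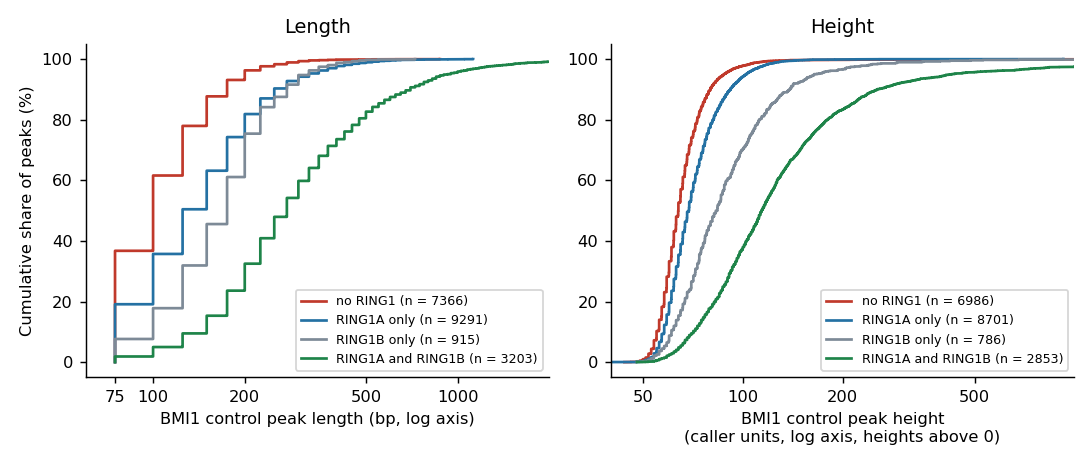
Cumulative share of control BMI1 peaks (y axis, %) by length in bp and by height in caller units (x axes, log scale), for peaks without RING1, with RING1A only, with RING1B only and with both; heights leave out chromosomes 22, X and Y. Peaks without RING1 lie farthest to the left in both panels, with medians of 100 bp and 63.9, and peaks with both RING1 proteins farthest to the right, with medians of 275 bp and 114.

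The nearest RING1 peak was usually a RING1A peak and often close. The median gap to the nearest control RING1A or RING1B peak was 2725 bp, with quartiles of 600 and 12650 bp. RING1A was nearer than RING1B for 6914 of the 7366 sites. A RING1 peak lay within 1000 bp of 2476 sites (33.6%, 32.5 to 34.7) and within 100 bp of 564 (7.66%), while 376 sites (5.10%) were more than 100000 bp from any. The median gap to RING1A alone was 2925 bp and to RING1B alone 235025 bp, beside lists of 56011 and 5155 peaks.

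At the edge of the rule, the sites just inside and just outside it had close heights and lengths. The 150 RING1-free sites that touch a RING1 peak without sharing a base had a median height of 62 and a median length of 100 bp, and 32.0% of them lay on a uH2A mouse peak. The 279 RING1-bound peaks that share 25 bp, the shortest overlap, had a median height of 62.0 and a median length of 100 bp, and 28.0% lay on uH2A mouse. A BMI1 peak in knockdown cells lay on 8 of the 150 touching sites (5.33%) and on 7 of the 279 peaks with a 25-bp overlap (2.51%), against 21.1% of all control BMI1 peaks. The tallest touching site was on chromosome 14 at 35248151 to 35248250, with a height of 99.3, and the tallest peak with a 25-bp overlap was on chromosome 1 at 145072301 to 145072475, with a height of 132.

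BMI1 peaks themselves were farther apart around RING1-free sites. The median gap to the next BMI1 peak was 8175 bp for RING1-free sites and 1225 bp for RING1-bound peaks. Another BMI1 peak lay within 1000 bp of 21.1% of RING1-free sites and of 46.8% of RING1-bound peaks. The nearest BMI1 peak was itself RING1-free for 45.4% of RING1-free sites and for 28.2% of RING1-bound peaks.

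The sites were unevenly spread over the chromosomes. Chromosome 14 held 1073 of them, 10.0 per Mb, chromosome 18 held 474 (6.08 per Mb), chromosome 21 held 270 (5.61 per Mb) and chromosome 5 held 870 (4.81 per Mb), against 57 (0.495 per Mb) on chromosome 13 and 37 (0.238 per Mb) on X. The median over chromosomes was 1.88 per Mb. BMI1 peaks as a whole followed the same chromosomes, with 31.0 per Mb on chromosome 14 and 0.721 on chromosome 13. The share of BMI1 peaks that was RING1-free varied less, between 25.5% on X and 52.5% on chromosome 20, apart from 68.7% on chromosome 13, where the list has 83 BMI1 peaks.

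Within chromosomes the sites gathered in blocks. Of 1469 windows of 1 Mb with any RING1-free site, 77 held 20 or more, and these 77 held 2561 sites (34.8%). The richest was on chromosome 14 at 35000001 to 36000000, with 79 RING1-free sites among 305 BMI1 peaks. Chromosome 5 at 1000001 to 2000000 followed with 75 of 224, then chromosome 14 at 50000001 to 51000000 with 73 of 252, and at 31000001 to 32000000 with 69 of 190. These windows were chosen for their counts, and each also held many RING1A peaks (423, 608, 315 and 231). The RING1-free share of their BMI1 peaks was 25.9%, 33.5%, 29.0% and 36.3%, against 35.5% of all control BMI1 peaks. They were thus dense in BMI1 peaks of both kinds. Whether RING1-free sites gather more than BMI1 peaks as a whole was not tested.

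Most RING1-free sites carried none of the marks or proteins outside the rule. In control cells 4907 sites (66.6%, 65.5 to 67.7) lay on no EED, uH2A or H3K27me3 peak, against 47.0% of RING1-bound peaks and 53.9% of all BMI1 control peaks. The difference was 19.6 percentage points (Newcombe interval 18.3 to 21.0). By class the share was 44.2% for RING1A only, 50.5% for both and 62.8% for RING1B only. RING1-free sites were 3.78 points above the RING1B-only peaks (0.518 to 7.13). Counting the knockdown lists as well, 4376 sites (59.4%) met no other peak of the series at all. By the rule no RING1-bound peak can do so, so these 4376 are also the count among all 20775 control BMI1 peaks. The tallest of these outside windows of very high signal were on chromosome 9 at 68418951 to 68419100 with a height of 147, chromosome 14 at 32362551 to 32362700 with 124, and chromosome 17 at 36372351 to 36372525 with 120. Each of these 3 had a knockdown BMI1 peak close by without overlap, at 25, 175 and 625 bp.

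Ubiquitinated H2A, the mark RING1 ligases make, was read with a pair of antibodies that gave differences of unlike size, and the difference between the antibodies was not tested. The uH2A mouse antibody had a peak on 962 RING1-free sites (13.1%, 12.3 to 13.9), against 36.0% of RING1-bound peaks and 27.8% of all control BMI1 peaks. The difference was -22.9 points (-24.0 to -21.8). It was -29.8 points against RING1A-only peaks, of which 42.8% lay on uH2A mouse. BMI1 peaks with RING1B only lay on it in 1.53% of cases, fewer than RING1-free sites. At matched length the difference from all RING1-bound peaks was -22.4 points and at matched height -22.2.

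The uH2A rabbit antibody had a peak on 1395 RING1-free sites (18.9%, 18.0 to 19.9), against 22.8% of RING1-bound peaks, with 21.4% of all control BMI1 peaks as the background. The difference of -3.87 points (-5.01 to -2.72) shrank to -1.47 at matched length. Its sign depended on length and height. Among peaks of 75 to 100 bp, 14.9% of RING1-free sites and 19.2% of RING1-bound peaks lay on uH2A rabbit, and among peaks of 225 bp or more they were 118 of 273 RING1-free sites (43.2%) and 1098 of 4071 RING1-bound peaks, a difference of 16.3 points (10.3 to 22.3). Among BMI1 peaks at least as tall as the list's median, it was 29.0% of RING1-free sites and 24.9% of RING1-bound peaks. The difference also turned with the class of RING1-bound peak. It was -8.40 points (-9.67 to -7.12) against RING1A-only peaks, of which 27.3% lay on uH2A rabbit. RING1-free sites were 4.80 points above peaks with both, at 14.1%, and 11.7 points above RING1B-only peaks, at 7.21%.

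EED, the PRC2 subunit, lay on 984 RING1-free sites (13.4%, 12.6 to 14.2), against 19.5% of RING1-bound peaks and 17.3% of all control BMI1 peaks, a difference of -6.16 points (-7.18 to -5.12). At matched length it was -2.06 points. Split by class, it was -8.21 points against RING1A only (21.6%), -2.91 against both (16.3%) and 3.30 against RING1B only (10.1%). The sign turned with length for EED as it did for uH2A rabbit. At 75 to 100 bp the shares were 9.87% and 13.9%, and at 225 bp or more 35.9% and 27.4%, a difference of 8.53 points (2.90 to 14.5). H3K27me3, the PRC2 mark, lay on 388 RING1-free sites (5.27%, 4.77 to 5.80), against 13.2% of RING1-bound peaks and 10.4% of all control BMI1 peaks. Most of that difference of -7.94 points was against peaks with RING1B, with 28.7% for RING1B only and 864 of 3203 for both, while RING1A-only peaks had 6.93%. At matched length the H3K27me3 difference was -3.39 points.

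**Figure D2:**
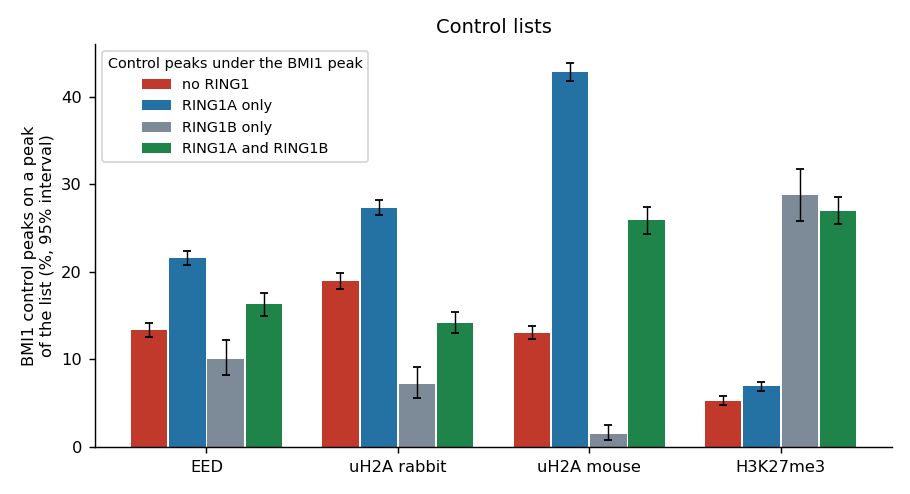
Share of control BMI1 peaks that lie on a control EED, uH2A rabbit, uH2A mouse or H3K27me3 peak (y axis, %, with 95% Clopper-Pearson intervals), for peaks without RING1, with RING1A only, with RING1B only and with both. For uH2A mouse the bar without RING1 is 13.1% and that with RING1A only 42.8%; for uH2A rabbit they are 18.9% and 27.3%.

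**Figure D3:**
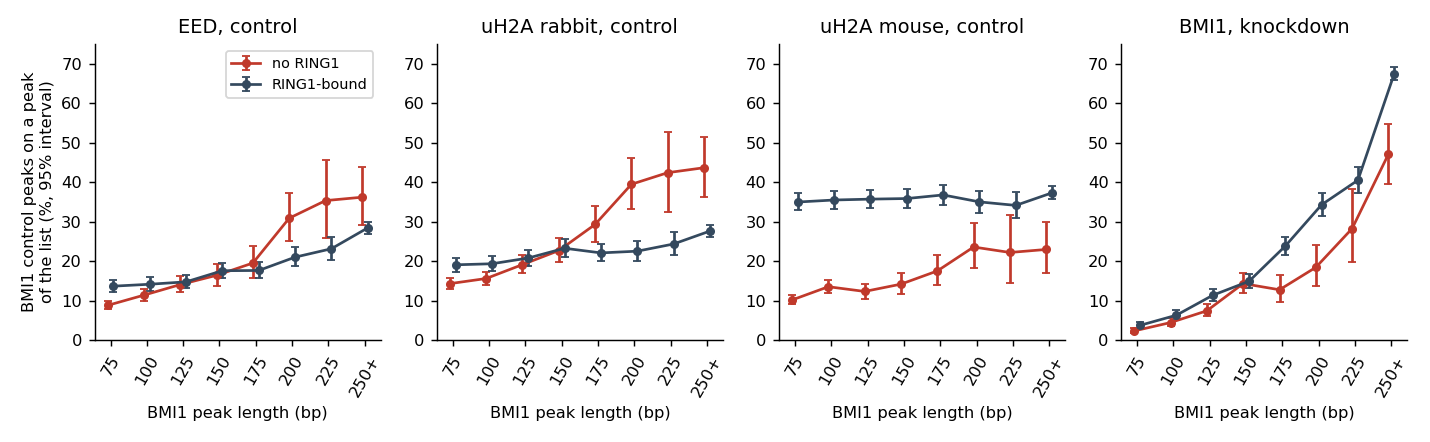
Share of control BMI1 peaks on control EED, uH2A rabbit and uH2A mouse peaks and on knockdown BMI1 peaks (y axes, %, 95% intervals) by BMI1 peak length (x axes, bp), for RING1-free and RING1-bound peaks. For EED and uH2A rabbit the RING1-free points lie lower at 75 bp and higher at 200 bp and beyond, and for uH2A mouse they lie lower at every length.

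Among BMI1 peaks on EED, the share also on uH2A mouse was lower at RING1-free sites than at RING1-bound peaks. Of the 984 RING1-free sites on EED, 659 (67.0%, 63.9 to 69.9) were also on uH2A rabbit, against 67.6% of the RING1-bound peaks on EED, a difference of -0.587 points with an interval of -4.07 to 2.81. For uH2A mouse the same comparison gave 27.5% and 74.2%, a difference of -46.7 points (-49.9 to -43.4). The interval of the rabbit difference spans 0 and that of the mouse difference does not. EED and both uH2A antibodies belong to the same library set, and the part of the set in their overlap was not tested. All 4 marks together were found at 10 of 7366 RING1-free sites (0.136%), against 210 of 13409 RING1-bound peaks (1.57%).

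Named examples show these combinations. The RING1-free site on chromosome 7 at 16437201 to 16437500, with a height of 139, lay on EED and both uH2A peaks and 64850 bp from the nearest RING1 peak. That on chromosome 9 at 139525426 to 139525775 (height 123) also lay on these 3, at 300 bp from a RING1A peak. The site on chromosome 2 at 91821601 to 91821800 (height 223) lay on EED, uH2A rabbit and H3K27me3. The longest RING1-free site, 875 bp on chromosome 2 at 1599701 to 1600575 with a height of 80.9, lay on EED and uH2A rabbit. The site on chromosome 18 at 9815376 to 9816025, 650 bp long, met none of the 4 control lists, and the site on chromosome 5 at 4003151 to 4003775, 625 bp, met EED and uH2A rabbit. The 3 longest sites all had a BMI1 peak in knockdown cells.

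Overlap with uH2A mouse fell off with the gap to the nearest RING1 peak. It was 28.9% (25.2 to 32.8) at gaps of up to 100 bp, 14.5% beyond that and up to 1000 bp, 11.1% up to 10000 bp, 10.3% up to 100000 bp and 9.31% (6.57 to 12.7) beyond. The uH2A rabbit share was 30.1% in the nearest class and 13.6% in the farthest, with intervals that did not overlap. EED varied little over the same classes, between 12.6% and 16.1%. The median length was 100 bp in each of the 5 classes. Median heights, from the nearest class to the farthest, were 63.4, 65.8, 64.8, 62.9 and 59.9, and the classes were not matched on height. The site farthest from any RING1 peak outside windows of very high signal, on chromosome 4 at 164133301 to 164133375, was 5230400 bp away and had no other peak on it. The next, on chromosome 4 at 95496876 to 95497025, lay on EED and uH2A mouse.

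**Figure D4:**
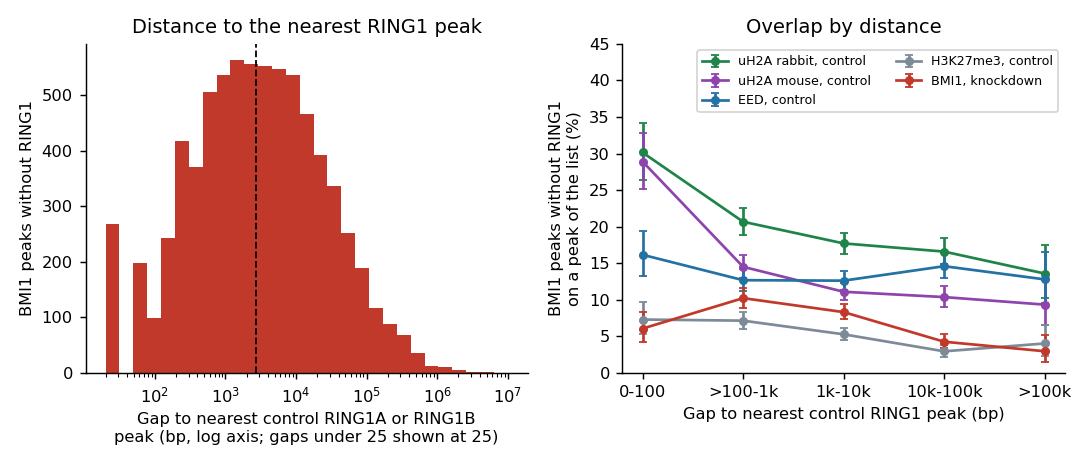
Left, number of RING1-free BMI1 sites (y axis) by gap to the nearest control RING1A or RING1B peak (x axis, bp, log scale; dashed line, median of 2725 bp); right, share of RING1-free sites on peaks of 4 control lists and of the knockdown BMI1 list (y axis, %, 95% intervals) by class of gap (x axis). The uH2A mouse share is 28.9% in the nearest class and 9.31% in the farthest, and the share with a knockdown BMI1 peak is highest, 10.2%, in the class between 100 and 1000 bp.

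In EED knockdown cells few RING1-free sites still had a BMI1 peak. Of the 7366 sites, 543 (7.37%, 6.79 to 7.99) lay on a knockdown BMI1 peak, against 28.7% of RING1-bound peaks and 21.1% of all control BMI1 peaks. The difference was -21.3 points (-22.3 to -20.3). With peaks within 1000 bp counted as well, the shares were 13.3% of RING1-free sites and 38.0% of RING1-bound peaks. BMI1 peaks with RING1A only were kept in 10.7% of cases, those with RING1B only in 66.9% and those with both in 70.0%. Against RING1A-only peaks the difference was -3.29 points (-4.16 to -2.42).

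Length and height moved with this result. At matched length the difference between RING1-free and RING1-bound peaks was -4.17 points, and at matched height and length together it was -2.35 points (6.68% against 9.03%). Among RING1-free sites of 75 to 100 bp, 3.22% were kept, and among those of 225 bp or more 40.3%, while RING1-bound peaks of these lengths were kept in 5.00% and 62.0% of cases. The last class has no upper bound and runs to 875 bp for RING1-free sites and 5100 bp for RING1-bound peaks. Length is therefore not fully matched in it. Kept RING1-free sites had a median length of 150 bp and a median height of 73.9, and lost ones 100 bp and 63. On chromosome Y, 44 of 113 RING1-free sites (38.9%) were kept, the highest share of any chromosome, of which 34 lay in the window at 58000001 to 59000000. That window held 127 control and 140 knockdown BMI1 peaks, beside whole lists of 20775 and 6257. RING1-free sites on Y were not compared with RING1-bound peaks there.

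The kept share also moved with the marks. RING1-free sites on EED were kept in 16.1% of cases and the others in 6.03%, a difference of 10.0 points (7.78 to 12.5), or 6.57 at matched length. For H3K27me3 the values were 20.4% and 6.65% (13.7 points, 9.95 to 18.0, or 11.7 at matched length) and for uH2A rabbit 12.6% and 6.15% (6.47 points, 4.71 to 8.41, or 3.27). Sites on uH2A mouse went the other way, with 4.78% kept against 7.76% (-2.98 points, -4.34 to -1.32, or -5.00). Among RING1-bound peaks the same split gave 32.9% kept on EED and 27.7% off it, and 59.8% on H3K27me3 and 23.9% off it. RING1-bound peaks on uH2A rabbit were kept in 25.04% of cases and those off it in 29.7%, the opposite order to RING1-free sites, and for uH2A mouse the shares were 19.8% and 33.6%. Whether these splits differ between RING1-free and RING1-bound peaks was not tested.

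By combination the kept share of RING1-free sites ranged more widely, beside 21.1% of all control BMI1 peaks. Of the 469 RING1-free sites with uH2A mouse and no other of the 4 marks, 3 (0.640%) were kept. Of the 416 with EED and uH2A rabbit and nothing else, 89 (21.4%) were kept, and of the 256 with H3K27me3 alone 60 (23.4%). Each of the first pair alone gave less, with 29 of 479 (6.05%) for uH2A rabbit and 20 of 261 (7.66%) for EED. With uH2A mouse added, EED and uH2A rabbit gave 33 of 203 (16.3%). Without EED, uH2A rabbit and uH2A mouse gave 6 of 187 (3.21%), and without uH2A rabbit, EED and uH2A mouse gave 0 of 56. Sites with none of the 4 were kept in 5.79% of cases (284 of 4907), against 28.6% of RING1-bound peaks with none. Other combinations were not compared with RING1-bound peaks, and none was matched on length. Median length was 125 bp for EED with uH2A rabbit and for H3K27me3 alone, and 100 bp for uH2A mouse alone.

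Named sites kept and lost illustrate the range. The tallest kept site outside windows of very high signal was that on chromosome 2 at 91821601 to 91821800, with a BMI1 height of 135 in knockdown cells and 223 in control cells. The site on chromosome 9 at 68418751 to 68418825 had 177 in knockdown and 209 in control cells, and that on chromosome 14 at 47885701 to 47885975 had 82.6 and 162. The site on chromosome 1 at 207097526 to 207097675, on EED and uH2A rabbit, had 117 and 139. Heights are not scaled between libraries, so these pairs are given side by side and not as a change. The tallest lost sites, with no knockdown BMI1 peak within 1000 bp, were on chromosome 21 at 11186776 to 11186850 with a height of 284, chromosome 2 at 109815776 to 109816050 with 161, and chromosome 14 at 32183601 to 32183775 with 149. The first of these lay on a knockdown RING1A peak and the second on knockdown RING1B and H3K27me3 peaks.

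The 5 tallest RING1-free sites of the whole list all lay on chromosome 10 between 42383426 and 42529300, in windows of very high signal, with heights of 659 to 3707. A control RING1A peak was 25 to 1225 bp away from each, and all 5 lay on a knockdown RING1B peak. Such windows, in which at least 2 other antibodies have a peak over 10 times their median height, held 117 RING1-free sites (1.59%) and 5.63% of RING1-bound peaks. Without them, 7.10% of RING1-free sites were kept.

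RING1A and RING1B peaks appeared at few of these sites in knockdown cells. A knockdown RING1A or RING1B peak lay on 295 RING1-free sites (4.005%, 3.57 to 4.48), against 21.3% of RING1-bound peaks and 15.2% of all control BMI1 peaks. The difference of -17.3 points was -4.86 at matched length. For RING1A alone it was 224 sites (3.04%; 14.0% of all control BMI1 peaks), and for RING1B alone 88 (1.19%; 4.95% of all). RING1A-only BMI1 peaks, which had a RING1A peak in control cells, had a knockdown RING1A or RING1B peak in 4.19% of cases. The difference of RING1-free sites from them was -0.182 points, with an interval of -0.784 to 0.430.

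Of the 295 sites with a RING1 peak in knockdown cells, 30 lay in windows of very high signal, against 117 of all 7366 RING1-free sites, and the part of these windows in the values that follow was not tested. Of the 295, 138 kept BMI1 and 157 did not, so 25.4% of the kept sites (21.8 to 29.3) and 2.30% of the lost sites carried RING1 in knockdown cells. A knockdown H3K27me3 peak lay on 131 of the 295 (44.4%) and on 1.41% of the other RING1-free sites. A control RING1 peak lay within 1000 bp of 159 of them.

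The other knockdown lists were also sparse at RING1-free sites. H3K27me3 lay on 3.14% of them (231), against 16.8% of RING1-bound peaks and 12.0% of all control BMI1 peaks. RING1A-only peaks had still less, 2.17%, so RING1-free sites were 0.962 points above them (0.471 to 1.47). EED lay on 1.59% (117), against 4.74% of RING1-bound peaks and 3.62% of all. The uH2A mouse antibody had a knockdown peak on 1.64% of RING1-free sites (121), against 15.4% of RING1-bound peaks and 10.5% of all. The uH2A rabbit antibody had knockdown peaks on 9.83% of RING1-free sites (724, 9.16 to 10.5), against 11.3% of RING1-bound peaks and 10.8% of all. By class it was 13.3% for RING1A only, 3.50% for RING1B only and 7.59% for both. For EED and uH2A mouse, RING1A-only peaks were above RING1-free sites, with 3.02% and 15.2%. These knockdown lists differ in length, with 11327 uH2A rabbit, 7160 uH2A mouse, 4205 H3K27me3 and 1372 EED peaks, and uH2A rabbit, with the highest share, is the longest. Any of the 7 knockdown lists had a peak on 19.8% of RING1-free sites, against 50.3% of RING1-bound peaks and 39.5% of all.

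**Figure D5:**
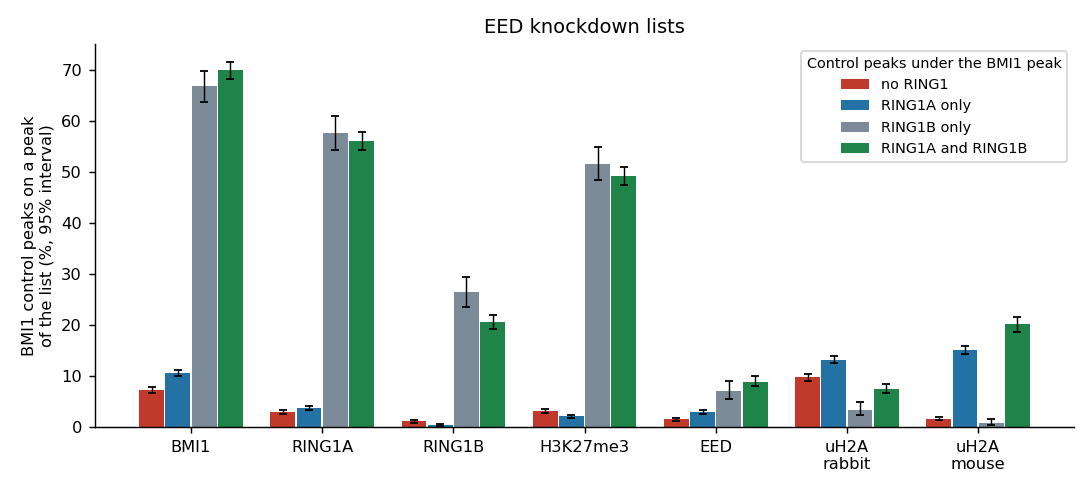
Share of control BMI1 peaks that lie on a peak of each of the 7 EED knockdown lists (y axis, %, with 95% Clopper-Pearson intervals), for control BMI1 peaks without RING1, with RING1A only, with RING1B only and with both. Peaks without RING1 and with RING1A only are low for BMI1, at 7.37% and 10.7%, and peaks with RING1B reach 66.9% and 70.0%.

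Among sites that had a mark in control cells, the share kept was highest for uH2A rabbit, which also has the longest knockdown list. Of the 1395 RING1-free sites on uH2A rabbit, 661 (47.4%, 44.7 to 50.04) lay on a knockdown uH2A rabbit peak, against 45.3% of RING1-bound peaks on uH2A rabbit. The difference was 2.11 points with an interval of -1.05 to 5.26. The uH2A mouse mark was kept at 54 of 962 RING1-free sites (5.61%), against 35.1% of RING1-bound peaks with it (-29.5 points, -31.3 to -27.3). EED was kept at 8.54% against 19.2%, and H3K27me3 at 20.6% against 52.9%.

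A counterpart of these sites exists in knockdown cells. Of 6257 knockdown BMI1 peaks, 3175 (50.7%, 49.5 to 52.0) overlapped no knockdown RING1A or RING1B peak, against 35.5% in control cells, a difference of 15.3 points (13.9 to 16.7). The lists behind these shares differ in length, with 4072 RING1A peaks in knockdown and 56011 in control cells. With the control RING1A list limited to its tallest 20775 peaks, 52.2% of control BMI1 peaks were RING1-free and the sign of the difference turned, to -1.44 points. The 2189 control RING1A peaks on chromosomes 22, X and Y have a height of 0 and rank last by height. The BMI1 peaks there stayed in the share, and the part of this in the turned sign was not tested.

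The knockdown RING1-free peaks overlapped control RING1-bound peaks more often than control RING1-free sites. The control list holds more of the former, 13409 peaks over 2825 kb against 7366 over 837 kb, and this was not allowed for. Of the 3175, 403 (12.7%) lay on a control RING1-free site, against 144 of the 3082 knockdown BMI1 peaks with RING1 (4.67%). On a control RING1-bound peak lay 1740 of the 3175 (54.8%), against 78.5% of those with RING1, and 1035 of the 3175 lay on no control BMI1 peak. They were shorter than the knockdown BMI1 peaks with RING1, with median lengths of 125 and 225 bp, and 19.4% of them lay on knockdown H3K27me3, against 75.1% of those with RING1. On uH2A rabbit the order was the other way, with 20.3% of those without RING1 and 7.59% of those with it.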

How the data were processed

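Peak lists of 14 ChIP-seq libraries were used, 1 for each of 7 antibodies in EED knockdown and in control DU145 cells. The submitters' processing notes name Bowtie and hg19. File names in the series point to the HPeak caller, and there is 1 list per library. The height is the peak signal as the authors' caller wrote it in the deposited lists, and its normalization is not known. Those deposited lists also hold a negative score per peak, which was not used. Lengths in the lists are multiples of 25 bp. Depth is unknown, so no limit that needs it is given.

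Chromosomes numbered beyond 22 were taken as X and Y. Overlap meant at least 1 bp. Shares carry Clopper-Pearson and differences Newcombe 95% intervals, and no p-value was computed, since each group has 1 library. Matching on length or height meant differences within 4 classes by quartile bounds of the control BMI1 list (height above 0 only), weighted by the RING1-free sites. Windows of very high signal are 100-kb windows and those next to them where 2 or more antibodies, BMI1 not counted, have a peak over 10 times their library's median height. Heights of 0 were counted in these medians. Named regions were the 5 tallest sites over all, and outside those windows the 5 tallest kept and 5 tallest lost, the 3 tallest with each mark, with both uH2A antibodies, with knockdown RING1 and with no other peak, the 3 longest, the 3 farthest from RING1, and the 3 at each edge of the rule. A few of these are described. The sites, lists and rules were chosen with earlier results of these data known. Alternatives were a stricter overlap, peaks within 1000 bp, a shorter RING1A list, subsets of peaks and matching; matching within chromosomes and on height and length jointly was added after the data were seen. The overlap code was tested on simulated data. Computations used Python 3.11.15, numpy 2.4.6, pandas 2.3.3, scipy 1.17.1 and matplotlib 3.10.9.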

Additional observations from a re-analysis of the deposited data

How the results depend on the processing

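No paired analysis was possible because each antibody has 1 library per cell line. Of 87 alternative values, 29 moved by less than their counting interval, 56 moved and 2 changed sign; the cause was not tested. The differences of RING1-free from RING1-bound peaks are given in percentage points, in the order EED, uH2A rabbit, uH2A mouse, H3K27me3, knockdown BMI1 and knockdown RING1 where all are listed. With an overlap of at least 50% of the BMI1 peak, 40.1% of BMI1 peaks were RING1-free. The differences at this overlap kept the 7366 and 13409 peaks of the main rule. They were -3.37, -2.17, -20.3, -6.44, -16.7 and -13.3. With a partner peak within 1000 bp, 23.5% were RING1-free. The differences, again for the 7366 and 13409 peaks of the main rule, were -8.62, -5.11, -20.1, -9.63, -24.7 and -21.9. With RING1-free sites over 1000 bp from RING1, again 23.5%, uH2A rabbit gave -5.84, uH2A mouse -25.3, H3K27me3 -8.89 and knockdown RING1 -18.5. With the tallest RING1A peaks only, 52.2% were RING1-free, and the values were -1.71 for uH2A rabbit, -18.6 for uH2A mouse, -10.6 for H3K27me3, -28.4 for knockdown BMI1 and -24.0 for knockdown RING1, while the knockdown minus control share turned to -1.44.

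With peaks of height above 0, 36.1% were RING1-free. Among the taller BMI1 peaks, from the median height up, it was 24.1%, with -1.28 for EED, a turned sign of 4.11 for uH2A rabbit, -10.5 for H3K27me3, -25.9 for knockdown BMI1, -22.5 for knockdown RING1 and 9.19 for the knockdown minus control share. Outside windows of very high signal it was 36.4%, with -6.24 for H3K27me3, -19.0 for knockdown BMI1, -15.1 for knockdown RING1 and 18.1 for the knockdown minus control share, which was 17.2 on autosomes only. Within height classes EED, uH2A rabbit, H3K27me3, knockdown BMI1 and knockdown RING1 gave -2.73, -2.65, -3.65, -4.97 and -4.82, within length classes -2.06, -1.47, -3.39, -4.17 and -4.86, and within joint classes, chosen after seeing the data, -1.60, -1.21, -3.17, -2.35 and -3.50. Within chromosomes, also chosen after seeing the data, uH2A rabbit gave -5.05, knockdown BMI1 -19.3 and knockdown RING1 -15.3.

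With 1 library per group, differences between knockdown and control lists cannot be told apart from differences between libraries. The number of peaks called limits every overlap: a list with few peaks can cover few sites, and absence from a list does not show absence of the protein or mark.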
